A study of Bos taurus with 38 samples.

Results

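The 9 genes of the gonadotropin receptors and of steroid and inhibin synthesis that were followed in single cattle cumulus-oocyte complexes were FSHR, LHCGR, STAR, CYP11A1, CYP19A1, HSD17B1, INHA, INHBA and AMH. The genes were listed by function, and 7 of the 9 could be tied to 1 of the 27607 Ensembl identifiers of the count tables. LHCGR and AMH were not tied to an identifier and were not analysed here. The 7 genes were FSHR (ENSBTAG00000032424), STAR (ENSBTAG00000033345), CYP11A1 (ENSBTAG00000006934), CYP19A1 (ENSBTAG00000014890), HSD17B1 (ENSBTAG00000047604), INHA (ENSBTAG00000009972) and INHBA (ENSBTAG00000048508). Each of 19 complexes gave 1 RNA library from its oocyte and 1 from its cumulus cells taken as a group, 38 libraries in all. The complexes were aspirated from antral follicles of abattoir ovaries and all were stained with brilliant cresyl blue (BCB), a dye that growing oocytes turn colorless and that fully grown oocytes retain. Of these, 9 complexes were labelled BCB+ (BCB positive, blue oocyte) and 10 were labelled BCB- (BCB negative, colorless oocyte). Neither the breed and age of the animals nor which complexes shared an animal was given in the sources used here, so the p-values measure the spread between these complexes.

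Follicle-stimulating hormone acts on granulosa and cumulus cells through its receptor, FSHR, a G protein-coupled receptor that raises cyclic AMP. In steroid-producing cells STAR carries cholesterol to the inner mitochondrial membrane, CYP11A1 cuts its side chain to give pregnenolone, CYP19A1 (aromatase) turns androgens into estrogens, and HSD17B1 converts estrone to estradiol. INHA encodes the alpha subunit and INHBA the beta A subunit that pair as inhibin A, while paired beta A subunits form activin A. Cumulus cells are the granulosa cells that stay in contact with the oocyte through the antral stage.

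Library totals ran from 3585944 to 10430148 counts in BCB positive cumulus cells, from 1103200 to 8013318 in BCB negative cumulus cells and from 8886070 to 29810354 in oocytes. The labels of compartment held against marker genes: the egg coat genes ZP2 and ZP3 and the germ cell gene DAZL summed to between 2767 and 5095 counts for each 1000000 (CPM) in oocytes and to between 0.108 and 66.5 CPM in cumulus cells. The 11 measured cumulus and granulosa markers summed to between 6689 and 16840 CPM in cumulus cells and to between 210 and 1919 CPM in oocytes, with the highest oocyte sum in complex 72. The hemoglobin gene HBA, the only measured marker of red blood cells, was also highest in complex 72, at 573 CPM in its cumulus cells and at 214 CPM in its oocyte, against at most 19.7 CPM in the other oocytes. Transcripts of the 13 mitochondrially encoded proteins took from 0.966 to 2.86% of the counts in BCB positive cumulus cells and from 1.17 to 17.4% in BCB negative cumulus cells. The complex numbers fall into runs from 6 to 24, from 65 to 74 and from 86 to 91, and the last run holds BCB negative complexes alone. Cumulus values below are CPM normalised by the TMM method, which sets the bulk of the genes of each library level, unless library totals are named. Levels were not compared between genes, since gene lengths were not used here.

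The receptor FSHR was detected in all 19 cumulus libraries, and its normalised levels had a coefficient of variation of 24.6%. In CPM of library totals the coefficient was 38.9%, with levels from 93.4 to 515 CPM. Normalised FSHR ran from 213 CPM through a median of 293 CPM to 435 CPM in the 9 BCB positive cumulus libraries. In the 10 BCB negative libraries it ran from 175 CPM through a median of 232 CPM to 326 CPM. The classes overlapped, although 5 of the 10 BCB negative libraries lay below every BCB positive library and 3 of the 9 BCB positive libraries lay above every BCB negative one. The highest value was that of complex 72.

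STAR, the cholesterol carrier, rested on few reads in cumulus cells, from 4 to 140 counts per library. It ran from 1.295 CPM through a median of 2.56 CPM to 4.11 CPM in BCB positive cumulus cells. In BCB negative cumulus cells it ran from 2.06 CPM through a median of 5.98 CPM to 30.7 CPM. Above every BCB positive complex lay 5 of the 10 BCB negative ones, complex 90 with 30.7 CPM, complex 86 with 14.5 CPM, complex 66 with 10.9 CPM, complex 91 with 10.2 CPM and complex 68 with 8.48 CPM. The remaining BCB negative complexes were within the BCB positive range. The value of complex 68 rested on 5 counts and on the scaling. In CPM of library totals it was at 4.53 CPM, below BCB positive complexes 24 and 74 at 5.09 and 4.61 CPM. Complexes 90, 86, 66 and 91 stayed above every BCB positive one. Mitochondrial transcripts took from 6.06 to 17.4% of the counts in the 5 complexes with high normalised STAR, with the 17.4% in complex 68. They took from 1.17 to 10.2% in the other BCB negative ones and at most 2.86% in BCB positive ones. COL1A2, the collagen gene that was the only measured marker of stroma, was at 9.71, 19.04 and 4.31 CPM of library totals in the cumulus cells of complexes 90, 68 and 66, under 1 CPM in those of complexes 86 and 91, from 0.2203 to 3.03 CPM in the other BCB negative ones and at most 0.942 CPM in BCB positive ones. COL1A2 was itself the more abundant in oocytes, with medians of 10.5 CPM there and 0.456 CPM in cumulus cells. It is thus no clean marker of stroma in these libraries. Complexes 66 and 68 also had the highest sums of oocyte markers among cumulus libraries, 66.5 and 49.9 CPM. The part of the mitochondrial share, of stroma or of oocyte RNA in the STAR difference was not tested.

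CYP11A1, which starts steroid synthesis from cholesterol, ran from 162 CPM through a median of 224 CPM to 446 CPM in BCB positive cumulus cells. In BCB negative cumulus cells it ran from 41.8 CPM through a median of 172 CPM to 265 CPM. In all, 4 of the 10 BCB negative libraries lay below every BCB positive one, with the lowest in complex 87, and complex 72 again held the highest value.

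CYP19A1, the aromatase gene, ran from 65.8 CPM through a median of 127 CPM to 310 CPM in BCB positive cumulus cells. In BCB negative cumulus cells it ran from 6.57 CPM through a median of 100.2 CPM to 174 CPM. Complexes 6, 89 and 87, all BCB negative, were at 6.57, 10.8 and 33.6 CPM, below every other complex of either class. The low value of complex 6 rested on 9 counts and that of complex 89 on 100 counts.

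HSD17B1, the last enzyme on the way to estradiol, had the tightest range of the 7 genes in BCB positive cumulus cells, from 1085 CPM through a median of 1204 CPM to 1419 CPM. In BCB negative cumulus cells it ran from 367 CPM through a median of 1144 CPM to 1567 CPM. The same complexes 6, 87 and 89 were lowest, at 367, 429 and 437 CPM, and the next library in order, that of complex 66, was at 989 CPM. At the upper end 2 BCB negative libraries lay above every BCB positive one, so that with this normalisation the BCB negative class reached past the BCB positive class at both ends.

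The inhibin subunit genes had the same 3 complexes at the low end. INHA ran from 2192 CPM through a median of 3127 CPM to 6162 CPM in BCB positive cumulus cells and from 352 CPM through a median of 2906 CPM to 4437 CPM in BCB negative cumulus cells. INHBA ran from 1373 CPM through a median of 3002 CPM to 8491 CPM in BCB positive cumulus cells and from 83.2 CPM through a median of 2869 CPM to 4764 CPM in BCB negative cumulus cells. With this normalisation the medians of the classes were close for both genes, and the ranges differed at both ends. At the upper end 1 of the 9 BCB positive libraries for INHA and 4 for INHBA lay above every BCB negative one. At the lower end were complexes 6, 89 and 87, which were at 352, 784 and 1902 CPM for INHA and at 83.2, 161 and 527 CPM for INHBA.

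For FSHR complexes 6 and 89, at 177 and 212 CPM, also lay below every BCB positive library, while complex 87 was at 310 CPM. For CYP11A1 complexes 6, 87 and 89 were at 106, 41.8 and 136 CPM, with complex 88 between them at 109 CPM. In that same order their library totals were 1772144, 3855234 and 8013318 counts and their mitochondrial shares were 8.66, 5.67 and 1.17%. The 11 cumulus and granulosa markers summed to 10760, 16007 and 15841 CPM. Complex 89 had the highest total and the lowest mitochondrial share of the BCB negative class. The part of depth or of the mitochondrial share in the low values of the 3 complexes was not tested. The complexes are named here because of their values, so the account of them is a description.

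**Figure D1:**
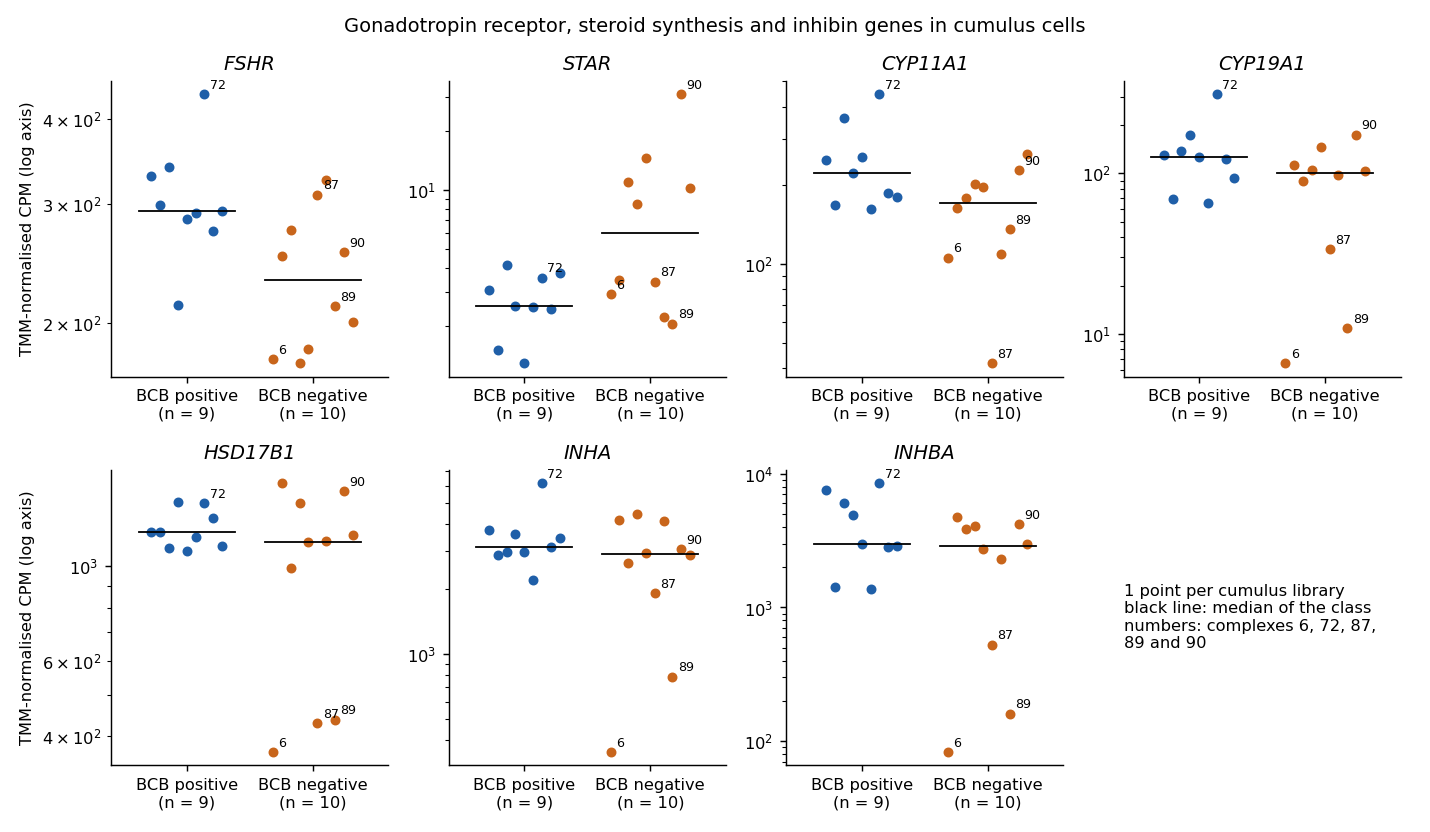
TMM-normalised CPM (log axis) of 7 genes in cumulus cells of BCB positive (n = 9, blue) and BCB negative (n = 10, orange) complexes, with 1 point per library and a black line at the class median. Complexes 6, 87 and 89 lie below all other libraries for CYP19A1, HSD17B1, INHA and INHBA, complex 90 is highest for STAR at 30.7 CPM, and complex 72 is highest for FSHR, CYP11A1, CYP19A1, INHA and INHBA.

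The question of the BCB comparison was whether transcript abundance in the cumulus cells differs with the growth stage of the oocyte. At a false discovery rate (FDR) under 0.01 in edgeR's quasi-likelihood test, 0 of the 7 genes differed between BCB classes in cumulus cells, where 0.560% of 12313 genes did, 5 of them higher and 64 lower in BCB positive complexes. Of the 7 genes 3 had an unadjusted p under 0.05, as did 2299 of all genes. FSHR was 0.37 higher in BCB positive cumulus cells on the log2 scale (standard error 0.15, FDR 0.18) and CYP11A1 was 0.61 higher (standard error 0.26, FDR 0.20). The estimates for CYP19A1 (0.64, standard error 0.45), HSD17B1 (0.27, standard error 0.24), INHA (0.34, standard error 0.33) and INHBA (0.74, standard error 0.58) had FDR values between 0.47 and 0.60. Without complex 72 CYP19A1 was at 0.39 and INHA at 0.19, and without complex 6 HSD17B1 was at 0.16. Positive estimates were found for 6 of the 7 genes and for 48.6% of all genes. Among the 6, CYP19A1, HSD17B1, INHA and INHBA had similar profiles over the libraries (r from 0.87 to 0.97), so they are not independent counts. The 95% intervals of CYP19A1, HSD17B1, INHA and INHBA covered 0, and the widest, that of INHBA, ran from -0.40 to 1.88.

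STAR had the largest difference of the 7 genes, in the opposite direction. It was 1.70 lower in BCB positive cumulus cells on the log2 scale (standard error 0.45, 95% interval from -2.59 to -0.81), with an FDR of 0.042, past a threshold of 0.05 that 2.92% of all genes passed but not past 0.01. With DESeq2 the estimate was -1.72 and the FDR 0.0054, under 0.01 as for 2.96% of all genes. With complex 90 left out the estimate was -1.16 and the FDR 0.10, and with the run of complex numbers in the model it was -1.17 and the FDR 0.34. All 9 BCB positive libraries lay below the BCB negative median in normalised CPM, and 3 of them lay above it in CPM of library totals.

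The scaling of the libraries moved these estimates. When CPM were taken on library totals alone, without TMM, the median difference of all genes moved from -0.01 to 0.46 on the log2 scale and 1704 genes passed, 1601 of them higher and 103 lower in BCB positive cumulus cells. CYP11A1 (1.14, FDR 0.0031) and FSHR (0.82, FDR 0.0061) were then among those called, where 13.8% of all genes were. In these CPM 8 of the 10 BCB negative libraries for FSHR and 9 for CYP11A1 and HSD17B1 lay below every BCB positive one. For CYP19A1 and INHA 7 did and for INHBA 3 did, against 3 for each of these genes in normalised CPM. No BCB negative library lay above the BCB positive range of HSD17B1, from 1308 to 1786 CPM. The class medians were then 3769 CPM in BCB positive and 2354 CPM in BCB negative cumulus cells for INHA, and 3808 and 2181.6 CPM for INHBA. The differences of CYP11A1 and FSHR beyond the median of all genes were then 0.68 and 0.36, close to the TMM estimates. Within complexes 65 to 74, where both classes were present, HSD17B1, INHA and INHBA were at -0.09, -0.07 and -0.12, against 0.33 for FSHR, 0.41 for CYP11A1, 0.52 for CYP19A1 and -1.52 for STAR, all with FDR values above 0.16. The cumulus totals of the classes did not overlap in that run, from 4386946 to 10430148 counts for BCB positive and from 1103200 to 1650795 for BCB negative complexes, and depth and class cannot be told apart there.

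**Figure D2:**
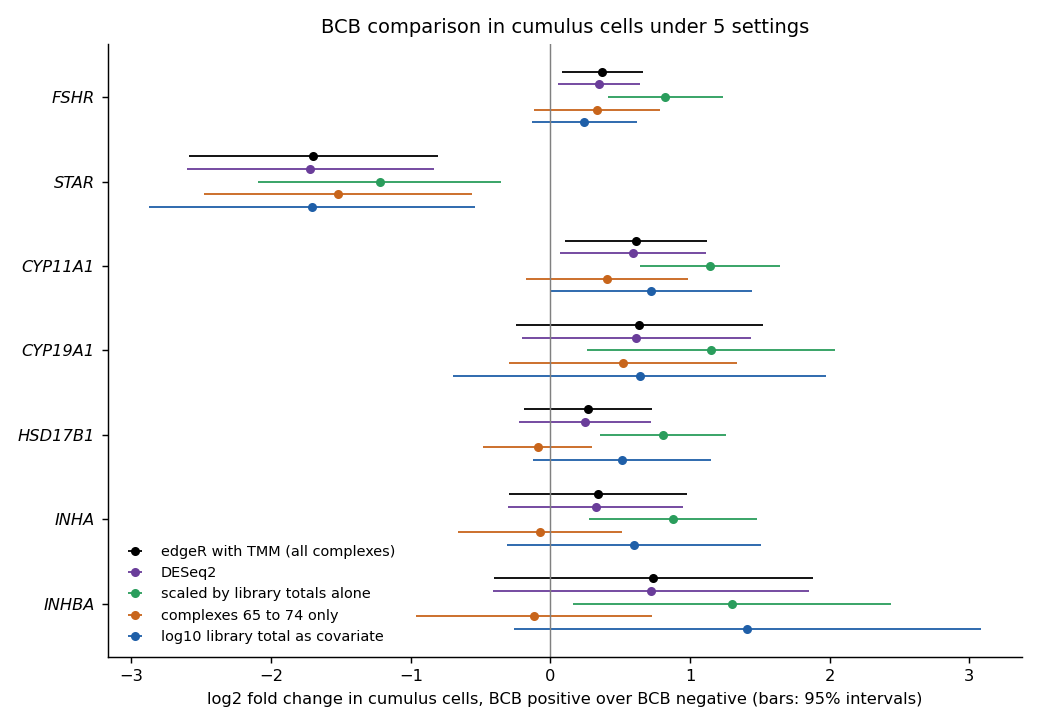
Log2 fold change of 7 genes in cumulus cells, BCB positive over BCB negative (x axis), under 5 settings given by colour, with bars of 95% intervals and a grey line at 0. STAR lies between -1.72 and -1.22 in all 5 settings, HSD17B1, INHA and INHBA fall on the negative side within complexes 65 to 74, and scaling by library totals alone moves all 7 genes to the right.

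The spread between complexes was measured as the standard deviation (SD) of log2 CPM within a BCB class. All 7 genes had the larger SD in BCB negative cumulus cells, as had 86.01% of the 12313 genes. On this log2 scale INHBA varied most, with an SD of 0.96 in BCB positive and 2.13 in BCB negative cumulus cells, above 95.7 and 99.6% of all genes of the class. CYP19A1 had an SD of 0.68 and 1.61, above 88.4 and 97.4% of all genes. STAR had an SD of 0.49 and 1.24, INHA of 0.40 and 1.18 and CYP11A1 of 0.51 and 0.77. At the other end FSHR, with an SD of 0.28 and 0.33, varied less than the median gene of each class, whose SD was 0.35 and 0.56. Within complexes 65 to 74 the SD of FSHR was 0.33 in BCB positive cumulus cells, above 57.5% of all genes. In BCB negative ones it was 0.35 there, above 29.0% of all genes.

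HSD17B1 had the largest ratio between the SDs of the classes, although INHBA, CYP19A1, INHA and STAR had larger differences between them. The SD of HSD17B1 was 0.14 in BCB positive cumulus cells, where 2.76% of all genes varied less, and 0.81 in BCB negative cumulus cells, where 74.3% varied less. As a coefficient of variation of normalised CPM this was 10.2 against 44.7%. By that measure all 7 genes and 84.4% of all genes also varied more in BCB negative cumulus cells, but the classes were closer for some. INHBA was at 60.8 and 68.4%, CYP19A1 at 53.9 and 62.9% and CYP11A1 at 39.0 and 40.5%. FSHR was at 19.6 and 23.3% and INHA at 32.4 and 50.7%. STAR, at 34.8 and 99.3%, and not INHBA, varied most in the BCB negative class. Within complexes 65 to 74 the SD was larger in BCB negative cumulus cells for 3 of the 7 genes (FSHR, STAR and HSD17B1) and for 75.2% of all genes, and the SD of INHBA there was 0.88 in the 6 BCB positive and 0.16 in the 3 BCB negative libraries. For INHA, INHBA, CYP19A1 and CYP11A1 the larger SD of the BCB negative class was seen over all complexes but not within that run.

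Over the 19 cumulus libraries 4 of the 7 genes had similar profiles. Pearson's r of log2 CPM was 0.97 between INHBA and CYP19A1, 0.94 between INHA and CYP19A1, 0.93 between INHA and INHBA, 0.90 between HSD17B1 and CYP19A1, 0.90 between HSD17B1 and INHBA and 0.87 between HSD17B1 and INHA. These coefficients describe 19 libraries that differ in depth and class, and the low values of complexes 6, 87 and 89 enter each of them. Among 4491 other genes with a symbol, the 3 genes most like CYP19A1 were INHBA, the kallikrein gene KLK1 (r = 0.95) and the neurexin gene NRXN2 (r = 0.95). KLK1 and NRXN2 also followed CYP19A1 in the order for INHA (r = 0.93 for both) and for INHBA (r = 0.95 for both).

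The other 3 genes stood apart from this set. CYP11A1 was most like SLC4A3 (r = 0.91), LRRC8A (r = 0.90) and TRAM2 (r = 0.90), and its coefficients with CYP19A1 and INHBA were 0.65 and 0.68. FSHR was most like MBTPS1 (r = 0.84), the protease that activates sterol-regulated transcription factors, DDX31 (r = 0.84) and TMED4 (r = 0.81), and its coefficient with CYP19A1 was 0.40. STAR was most like ZFAND2A (r = 0.79), WDR41 (r = 0.74) and EIF2D (r = 0.72), and its coefficients with the other 6 genes lay between -0.34 and 0.29.

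Oocytes carried STAR at a high level. In CPM of library totals STAR ran from 404 through a median of 540 to 683 CPM in the 19 oocytes, on 4342 to 15193 counts, and from 1.64 through a median of 3.22 to 30.2 CPM in the cumulus cells. Within complexes the oocyte held from 13.4 times (complex 90) to 344 times (complex 70) the cumulus level, and the oocyte was higher in all 19. STAR thus ran opposite to the remaining 6 genes.

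The comparison of compartments asked in which of the 2 cell types each transcript was the more abundant. All 7 genes differed between oocytes and cumulus cells at an FDR under 0.01, where 88.8% of 14785 genes did. FSHR and CYP11A1 were over 2 CPM in 5 and 6 of the 19 oocytes and passed the filter on low values only through the cumulus cells, where they were high, so their calls are no support. STAR was 6.31 higher in oocytes on the log2 scale (standard error 0.26), as were 46.5% of all genes. The other 6 were higher in cumulus cells, as were 42.3% of all genes, by 4.49 for CYP19A1, 6.35 for HSD17B1, 6.39 for INHA, 6.63 for FSHR, 6.68 for CYP11A1 and 6.77 for INHBA on the log2 scale. The number of cumulus cells per library was not given, and fewer cells and less RNA per cell cannot be told apart in such libraries. With the complex as a replicate block all 7 were called as well.

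**Figure D3:**
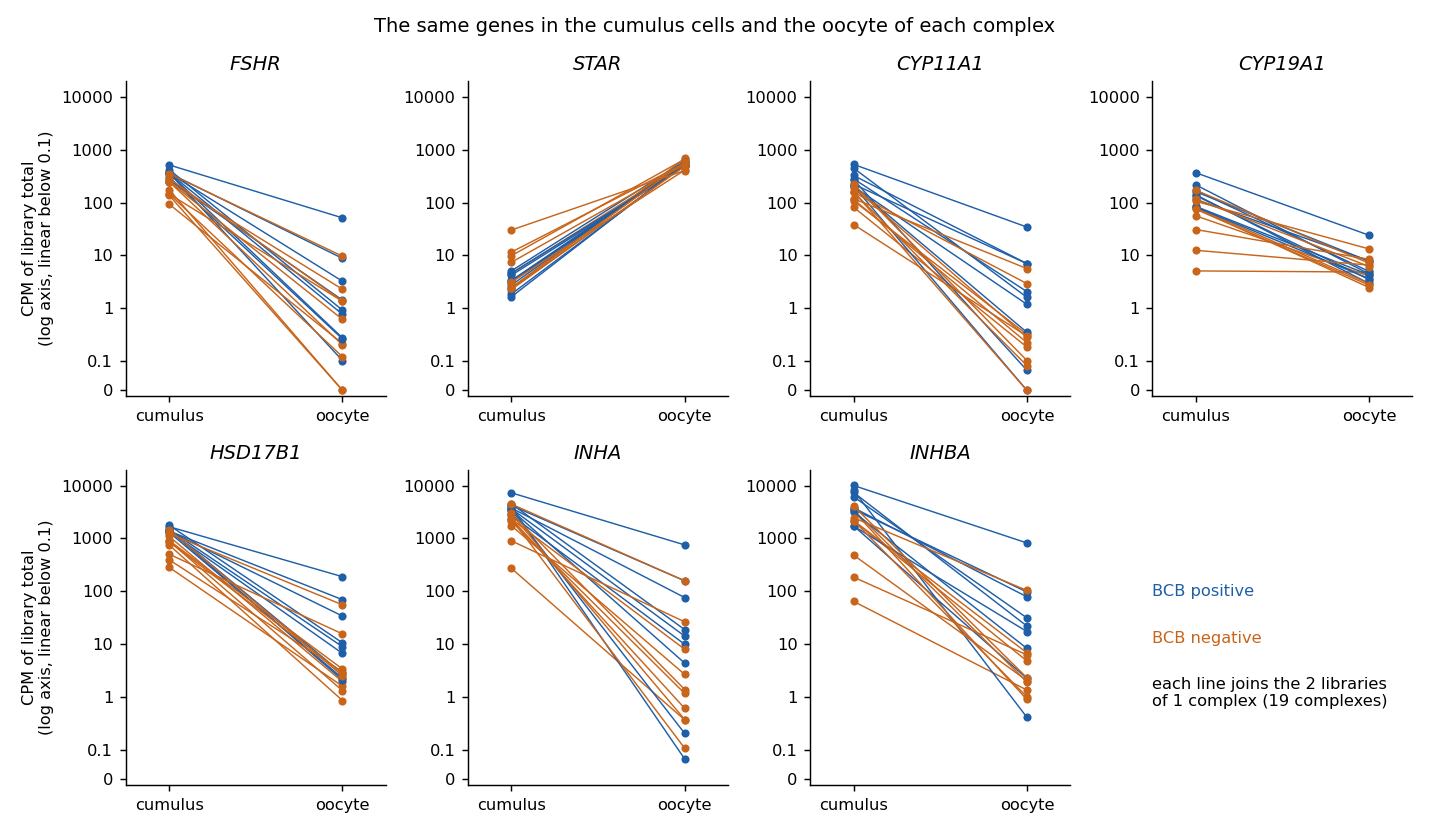
CPM of library total (log axis, linear below 0.1) of 7 genes in the cumulus cells and the oocyte of each of 19 complexes, with a line joining the libraries of 1 complex, blue for BCB positive and orange for BCB negative. STAR lies between 1.64 and 30.2 CPM in cumulus cells and between 404 and 683 CPM in oocytes, while the other 6 genes are lower in the oocyte.

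The 6 cumulus genes were present in most oocyte libraries at trace levels. In CPM of library totals the oocyte of complex 72 held 51.3 CPM of FSHR, 34.4 CPM of CYP11A1, 24.03 CPM of CYP19A1, 189 CPM of HSD17B1, 755 CPM of INHA and 822 CPM of INHBA. This was from 6.50 to 11.3% of the level in its own cumulus cells, with a median of 9.06% over the 6 genes. The next medians were 4.33% in complex 88, 3.44% in complex 74, 3.01% in complex 89 and 2.104% in complex 70, and all others were under 1%.

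Over the 19 oocytes the median share of the own cumulus level was 0.228% for FSHR, 0.296% for CYP11A1, 0.488% for HSD17B1, 0.152% for INHA and 0.313% for INHBA. FSHR was at 0 counts in the oocytes of complexes 6 and 65, which allows up to 0.184 and 0.224 CPM, and CYP11A1 was at 0 counts in those of complexes 19 and 66, which allows up to 0.305 and 0.303 CPM. INHA fell to 1 count, 0.0684 CPM, in the oocyte of complex 17, whose cumulus cells held 4070 CPM. The 11 cumulus and granulosa markers summed to 1919 CPM in the oocyte of complex 72, to 956 CPM in complex 88, to 702 CPM in complex 74, to 534 CPM in complex 89 and to 498 CPM in complex 70, and to between 210 and 330 CPM in the other 14. The 5 oocytes with the highest median share over the 6 genes were those with the highest marker sums. The order differed for single genes, and for CYP19A1 the highest share was in complex 6. The part of such RNA in the traces was not tested beyond leaving out complexes 72, 74, 88 and 89.

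CYP19A1 was the only one of the 6 with over 2 CPM in all 19 oocytes, while HSD17B1, INHA and INHBA passed that level in 15, 11 and 14. It ran from 2.46 through a median of 4.83 to 24.03 CPM on 29 to 583 counts. In complex 6, where cumulus cells held 5.08 CPM, the oocyte held 4.83 CPM, 95.2% of that level, and in complex 89 the share was 52.4%. Its median share of 4.81% was above the medians of the other 5 genes, all under 0.5%.

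**Figure D4:**
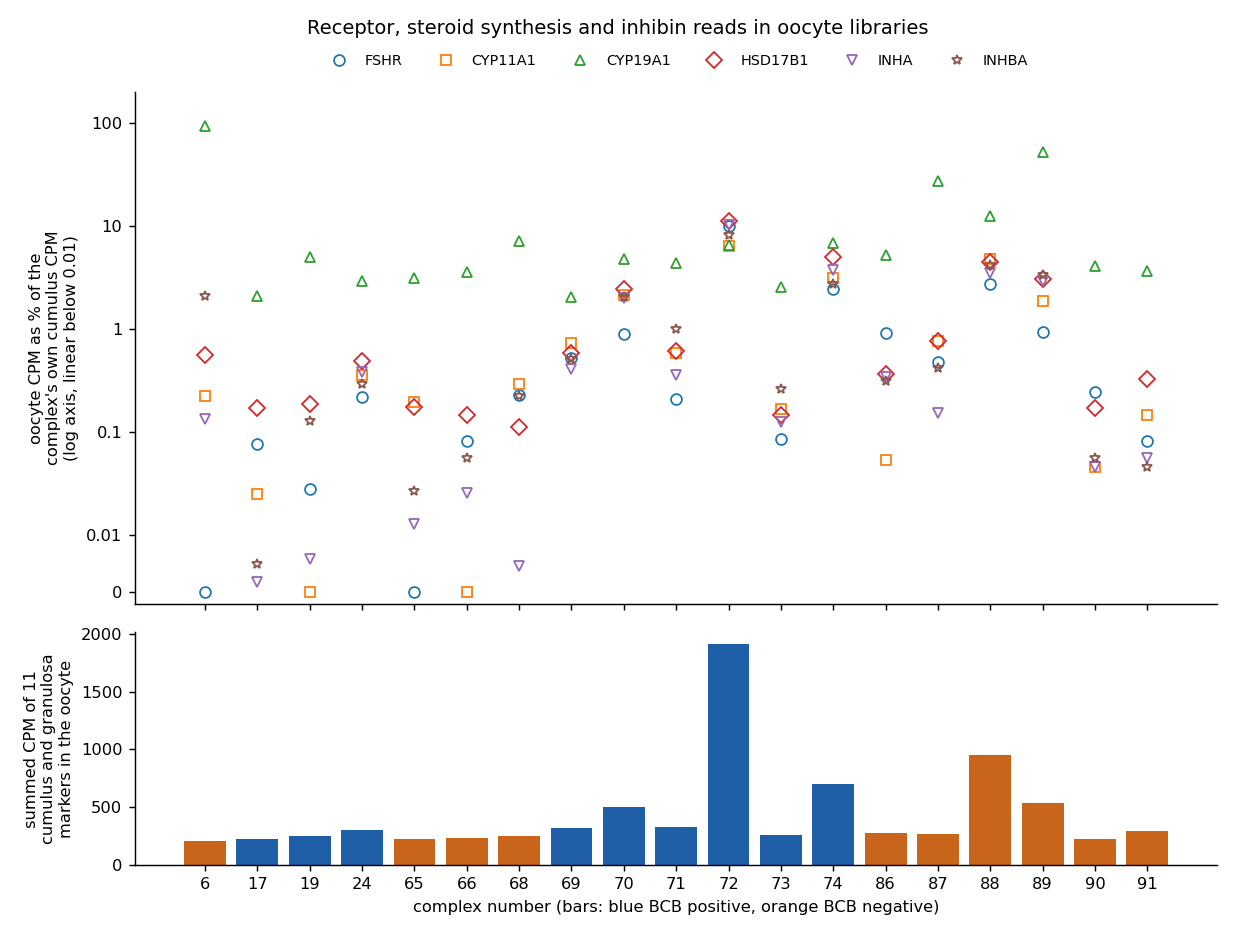
Upper panel, oocyte CPM as a percentage of the CPM in the cumulus cells of the same complex (log axis, linear below 0.01) for 6 genes; lower panel, summed CPM of 11 cumulus and granulosa markers in the oocyte, blue for BCB positive and orange for BCB negative, by complex number. Complexes 72, 88, 74, 89 and 70 have the highest median share over the 6 genes and the highest marker sums, the single highest shares are those of CYP19A1 in complexes 6, 89 and 87, and CYP19A1 stays above 2% in all 19 oocytes.

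Between BCB classes the oocytes did not differ past the threshold. At an FDR under 0.01 in edgeR's quasi-likelihood test 0 of the 5 genes kept by the filter on low values were called, and 0.00% of 12753 genes were, while 1 of the 5 and 711 of all genes had an unadjusted p under 0.05. FSHR and CYP11A1 did not pass the filter, with over 2 CPM in 5 and 6 of the 19 oocytes. STAR ran from 472 through a median of 546 to 605 normalised CPM in BCB positive oocytes and from 395 through a median of 530 to 716 in BCB negative oocytes, a difference of 0.03 on the log2 scale (standard error 0.10, 95% interval from -0.17 to 0.23). CYP19A1 had medians of 4.44 and 5.47 normalised CPM and an estimate of 0.27 (standard error 0.37).

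HSD17B1, INHA and INHBA had higher medians in BCB positive oocytes and wide errors. INHBA ran from 0.425 through a median of 21.7 to 799 normalised CPM in BCB positive and from 0.937 through a median of 2.13 to 101 in BCB negative oocytes. In all, 8 of the 9 BCB positive oocytes lay above the BCB negative median, and the estimate of 3.18 (standard error 1.24) had an FDR of 0.87. INHA was at 2.52 (standard error 1.40) and HSD17B1 at 2.02 (standard error 0.98), with an FDR of 0.89 for both. The cumulus and granulosa markers went the same way in oocytes, with 8 of 9 tested markers higher in BCB positive ones (median 0.53 on the log2 scale, against -0.01 over all genes) and 0 called.

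DESeq2 called INHBA alone among the 12753 genes, 0.00784% of them, at 4.84 with an FDR of 0.00082. That tool by default replaces counts it marks as outlying in groups of this size, and without the replacement the estimate was 3.21, the FDR 0.42 and the number of genes called 0. Without complexes 72, 74, 88 and 89, whose oocytes held over 500 CPM of the cumulus markers, the edgeR estimates were 3.11 for INHBA, 3.20 for INHA and 2.12 for HSD17B1, with FDR values of 0.69, 0.86 and 0.69, and that of CYP19A1 turned to -0.11. Without complex 72 alone INHBA was at 1.31, INHA at 0.84 and HSD17B1 at 0.96, and without complex 88 alone they were at 5.28, 4.58 and 3.26.

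An interaction term over the 38 libraries compared the BCB difference of cumulus cells with that of oocytes. At an FDR under 0.01, 0 of the 7 genes and 1.70% of 14785 genes were called, while 1 of the 7 and 2504 of all genes had an unadjusted p under 0.05. STAR came closest, with a BCB difference 1.72 lower in cumulus cells than in oocytes on the log2 scale (standard error 0.44, FDR 0.017), past a threshold of 0.05 that 4.59% of all genes passed. DESeq2 gave -1.77 with an FDR of 0.0022, where 5.03% of all genes were called. With the complex as a replicate block the estimate was -1.30 and the FDR 0.20, and the number of genes called fell from 251 to 2. The edgeR fit without complexes 72, 74, 88 and 89 gave -2.27 with an FDR of 0.00093. The fits without complex 88 or 89 alone also passed 0.01. Without complex 90 the estimate was -1.03 and the FDR 0.093. In normalised CPM complexes 89 and 88 had the lowest cumulus STAR of the BCB negative class, 2.06 and 2.24. Complexes 74 and 72, at 3.74 and 3.54, were near the top of the BCB positive class. Leaving these complexes out widens the class difference by their values alone, so the fits without them are no check on it.

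The level of STAR in cumulus cells was set beside oocyte transcripts in the same libraries, since the oocyte was the richer of the compartments in STAR. Cumulus STAR was from 0.291 to 7.48% of the level in the own oocyte, with a median of 0.601%. For the egg coat genes ZP2 and ZP3 the median share was 0.0086 and 0.0198%, and ZP2 was at 0 counts in 7 of the 19 cumulus libraries. For DAZL, the third measured oocyte marker, the median share was 1.11%, above that of STAR, on 0 to 18 counts per cumulus library. In complex 90, with the highest cumulus STAR, ZP2, ZP3 and DAZL were at 0.0451, 0.0776 and 0.815% of the own oocyte and STAR at 7.48%. In complexes 66 and 68 the egg coat genes were highest, ZP2 at 0.754 and 1.06% and ZP3 at 2.19 and 1.26%, and STAR was at 1.49 and 0.833%. The share of STAR was above those of both egg coat genes in 17 of 19 complexes and below at least 1 of them in complexes 66 and 68, and it was above that of DAZL in 10 complexes and below it in 9. The part of oocyte RNA in the STAR counts was not tested. The summed oocyte markers ran from 0.108 to 1.82 CPM in BCB positive and from 0.661 to 66.5 CPM in BCB negative cumulus cells.

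**Figure D5:**
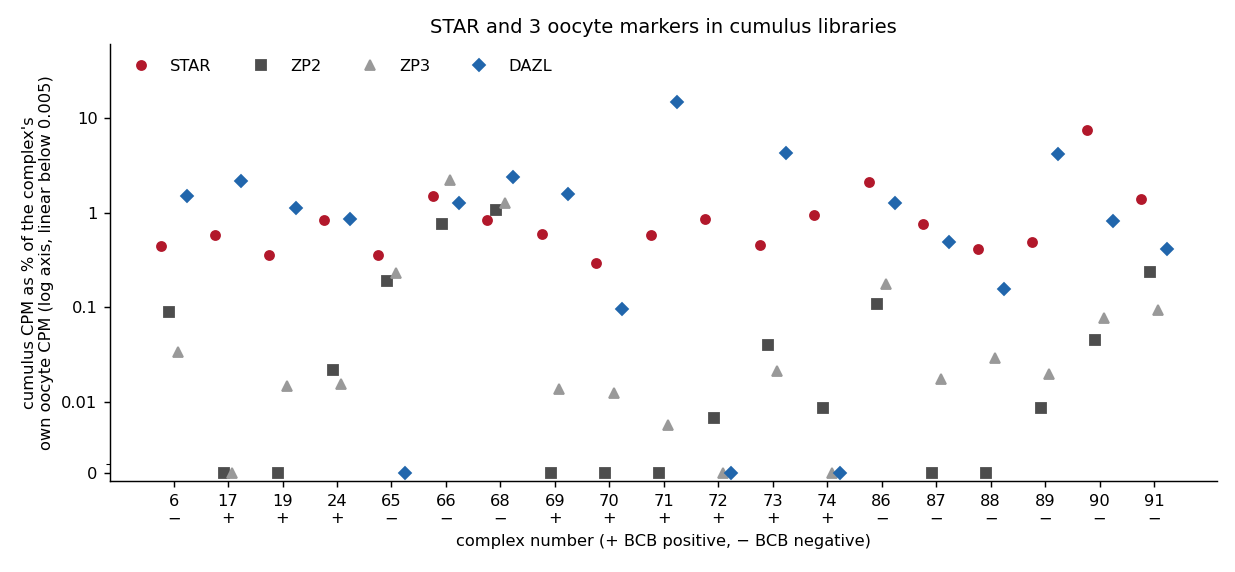
Cumulus CPM as a percentage of the CPM in the oocyte of the same complex (log axis, linear below 0.005) for STAR, the egg coat genes ZP2 and ZP3 and the germ cell gene DAZL, by complex number and BCB class. STAR lies above both egg coat genes except in complexes 66 and 68, lies above DAZL in 10 of 19 complexes, and reaches 7.48% in complex 90.

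Further genes of the same pathways were counted from lists by function, of which only members with a symbol could be used. The symbols came in part from tables that rank genes by the study's own BCB comparisons of these libraries, so the lists are not independent of the BCB comparison, and 0.957% of all genes with a symbol were called in cumulus cells. Of 8 measured genes of steroid synthesis beyond those above, 0 were called in cumulus cells (median difference 0.25 on the log2 scale, against -0.01 over all genes). FDXR, the reductase that passes electrons toward CYP11A1, was nearest, 0.78 higher in BCB positive cumulus cells (standard error 0.18, FDR 0.018), and HSD3B1, which makes progesterone from pregnenolone, was at 0.44 (standard error 0.26, FDR 0.37). Of 8 genes of cholesterol supply 0 were called (median 0.29), with LSS, the lanosterol synthase, at 0.59 (FDR 0.049).

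Of 10 genes that carry the gonadotropin signal 0 were called (median 0.21). Of 11 transcription factors and steroid receptors of granulosa cells 0 were called (median 0.25), among them the nuclear receptors NR5A1 at 0.11 (standard error 0.23) and NR5A2 at 0.50 (standard error 0.23, FDR 0.25) and the estrogen receptor ESR2 at 0.12 (standard error 0.17). Between compartments ESR2 was 0.81 lower in oocytes on the log2 scale, NR5A2 6.37 lower and HSD3B1 5.68 lower. HSD3B1 passed the filter on low values only through the cumulus cells.

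Of 4 tested genes of the inhibin, activin and AMH pathway, 1 was called in cumulus cells. BMPR1B, a type I receptor for bone morphogenetic proteins, ran from 2.82 through a median of 8.85 to 15.5 normalised CPM in BCB positive and from 10.4 through a median of 22.7 to 83.2 in BCB negative cumulus cells, 1.88 lower in BCB positive ones on the log2 scale (standard error 0.37, FDR 0.0082). The call was kept in 4 of 19 fits that left out 1 complex, whose FDR values ran up to 0.022, and was lost with the run of complex numbers (FDR 0.070) or the log10 total (FDR 0.10) as a covariate and within complexes 65 to 74 (FDR 0.46). Like STAR it was an oocyte-rich transcript, 2.93 higher in oocytes on the log2 scale. FST, which binds activin, was at 0.21 (standard error 0.18) and the AMH receptor gene AMHR2 at 0.39 (standard error 0.44).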

How the data were processed

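Poly(A) RNA of 19 oocytes and of their cumulus cells was amplified and sequenced in paired-end reads. The authors trimmed the reads, aligned them to ARS-UCD1.2 with HISAT2 2.1.0, removed low quality alignments and duplicates, and counted each Ensembl gene with featureCounts 1.6.0, so that the deposited values are raw counts per gene without use of strand. Groups and pairs were taken from the labels. The 7 genes and all lists were chosen with earlier results of these data known. Symbols came from the supplementary tables of the study, which named 4934 of 27607 identifiers.

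Genes with a CPM above 2 in at least 9 libraries of a compartment were kept. Differences were tested with edgeR 4.0.16 in R 4.3.3 (TMM, robust quasi-likelihood test, Benjamini-Hochberg FDR under 0.01), and DESeq2 1.42.0 served as an alternative. The standard error is the log2 fold change over the root of the F statistic. Log2 CPM used a prior count of 2. The deviations of the oocyte and the cumulus library of a complex correlated between -0.01 and 0.21 over genes (median 0.07, over 0.1 in 6 of 19). The pairing itself comes from the labels. The script was tested on simulated data, where of 200 genes changed 4-fold 90.5% were recovered in cumulus cells among 12313 genes (0 false calls), 95.5% in oocytes among 12753 (3 false calls) and 99.5% between compartments among 14898 (2 false calls), and of 200 changed 16-fold in the interaction 99.5% among 14898 (3 false calls). The simulated counts had 1 dispersion of 0.3 for all genes and classes, with no shift in composition and no run of complexes. The real cumulus classes differed in spread and depth, with TMM factors from 0.54 to 1.27. The rates therefore test the script and do not give the performance of the real comparison. Limits for 0 counts use 3 counts and cover counting error only. No library was a copy of another. Genes named beyond the 7 were those called in a list, AMHR2, FST, HSD3B1, NR5A1, NR5A2 and ESR2, the genes most like each of the 7, and FDXR and LSS, chosen after their values were seen. The genes most like HSD17B1 are not reported here. Other scalings, filters, covariates, a block and fits without single complexes were tried. Summaries and plots used Python 3.11.15.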

Additional observations from a re-analysis of the deposited data

Results flagged for a closer look

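Of 28 groups of values (7 genes, 2 compartments and 2 BCB classes), 14 held a library far from the rest of its group by Dixon's criterion. The criterion was applied to normalised CPM without logs. Its chance rate of about 1 in 20 groups assumes normal values and independent groups. Such CPM are skewed and the groups share libraries, so that rate does not hold here and the 14 are a description. Of the 14, 11 were oocytes of complexes 72 and 88, which also had the highest sums of cumulus and granulosa markers among oocytes. In normalised CPM the oocyte of complex 72 stood at 33.4 for CYP11A1, 23.4 for CYP19A1, 49.9 for FSHR, 184 for HSD17B1, 734 for INHA and 799 for INHBA. The oocyte of complex 88 stood at 5.51 for CYP11A1, 9.44 for FSHR, 54.2 for HSD17B1, 154 for INHA and 101.4 for INHBA. In cumulus cells complex 72 was far above the other BCB positive libraries for CYP19A1 (310, next 172) and INHA (6162, next 3751), and complex 90 far above the other BCB negative libraries for STAR (30.7, next 14.5). For the oocyte of complex 88 the next value of CYP11A1 in its class was 2.90.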

How the results depend on the processing

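STAR rested on few reads in cumulus cells, with as few as 4 counts per library, and reads of overlapping genes cannot be told apart without strand. In cumulus cells 0 of the 7 genes were called with edgeR, 1 at an FDR of 0.05, 1 with DESeq2 with or without replaced counts and 2 on library totals alone. There 69 genes were called in all, 360 at an FDR of 0.05, 1704 on library totals alone, 164 without a filter, 365 with DESeq2 (369 without replaced counts), 216 where edgeR's likelihood-ratio test without TMM and DESeq2 both passed 0.01 (0 of the 7 genes), 115 with the run of complex numbers and 2 with the log10 total as covariates, and from 6 (without complex 24) to 160 (without complex 89) with 1 complex left out, with 0 of the 7 genes in each of the 19 fits. In oocytes DESeq2 called 1 gene, which was 1 of the 7, against 0 otherwise, also with any 1 complex left out. Between compartments the filter of over 2 CPM in all libraries left 6735 genes called in place of 13128 and 1 of the 7, the only one tested; with 1 complex left out 7 of 7 and from 13038 to 13145 genes were called, and the replicate block by complex gave 13058 and 7.

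The interaction called 251 genes, 678 at an FDR of 0.05, 642 on library totals alone, 30 with the stricter filter, 744 with DESeq2 (745 without replaced counts), 2 with the replicate block by complex, 527 within complexes 65 to 74, 498 without the complexes over 500 CPM of cumulus markers, and from 96 (without complex 71) to 368 (without complex 88 or 89) with 1 complex left out. It called 1 of the 7 genes, STAR, at an FDR of 0.05, with DESeq2 with or without replaced counts, without the complexes over 500 CPM of cumulus markers and, among fits with 1 complex left out, without complex 88 or 89, against 0 in the others. The fits without complexes over the marker limit and without replaced counts were chosen after the data were seen. The cause of these shifts was not tested.

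Directions turned in 17 of 969 values of single genes, none of them called. Within complexes 65 to 74 the cumulus estimates turned to -0.091 for HSD17B1, -0.074 for INHA, -0.12 for INHBA, -0.0062 for HSD3B1, -0.017 for ESR2, -0.11 for FST and -0.43 for AMHR2, the oocyte estimate of STAR to -0.28 and the interaction of CYP19A1 to -0.98. With the run of complex numbers NR5A1 in cumulus cells turned to -0.032 and STAR in oocytes to -0.17, and with the log10 total STAR in oocytes to -0.016. Without the complexes over the marker limit CYP19A1 in oocytes turned to -0.11. With 1 complex left out, CYP19A1 in oocytes ran from -0.24 (without complex 72) to 0.49, STAR in oocytes from -0.016 to 0.079 and the interaction of FSHR from -2.86 to 0.14 (without complex 72). The SD was larger in BCB negative cumulus cells for 7 of 7 genes and for 3 within complexes 65 to 74. On library totals alone HSD3B1 (0.97), NR5A2 (0.97) and FST (0.71) also passed in cumulus cells. BMPR1B also lost its call without a filter (FDR 0.014).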
